A study of Felis catus with 6 samples.

Results

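In oral mucosa of cats with feline chronic gingivostomatitis (FCGS), 21529 Ensembl identifiers were measured. Described first are 6 genes of mevalonate and sterol synthesis: the enzymes AACS, ACAT2, HMGCS1, MVK and FDFT1, and the regulator SREBF2. They are not the whole pathway, and its other named enzymes are described further below. The symbols of the 6 genes came from the supplementary table of the study. The values printed there were matched to the deposited values of 1 identifier each. All 6 genes were found. That table holds only genes whose means differed at least 2-fold between the tissues, so a large difference was a condition of having a name, and the counts below are a description. SREBF2 and AACS, with mean differences of 2.07-fold and 2.13-fold, lay nearest to that limit. Identifiers just outside it carry no name. The 328 strongest falls of that table were not used here, so names also stop at a fold of -5.20.

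The mevalonate pathway builds isoprenoids and cholesterol from acetyl-CoA. AACS and ACAT2 each make acetoacetyl-CoA, HMGCS1 makes HMG-CoA from it, and MVK phosphorylates the mevalonate that is made from HMG-CoA. FDFT1 makes squalene and is the first enzyme committed to sterols, whereas SREBF2 encodes SREBP2, the transcription factor that in human and rodent cells is released from membranes when sterols are scarce and switches on the genes of the pathway. In mammalian epidermis, a stratified epithelium like that of the mouth, keratinocytes use the pathway to supply cholesterol for the barrier between the outer cells.

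The tissue came from 3 domestic cats with FCGS (Bart, Jerome and Sadie), each giving 1 biopsy of an inflamed lesion and 1 of adjacent tissue labelled healthy (gingival tissue in the labels), so that every cat is its own control and no cat free of FCGS was sequenced. The study states that its cats with FCGS had no teeth left and received buprenorphine but no immunosuppressive therapy or antibiotics when tissue was taken, which applies to lesion and healthy mucosa alike. Breed and age of these 3 cats were not found in the labels or methods. The authors deposited FPKM, sequenced fragments scaled by transcript length and by library size, which allows levels of different genes to be compared.

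FPKM summed to 1382122 to 1767520 in the 3 lesions and to 1429495 to 1903773 in the 3 healthy libraries. The files hold no read numbers. Values under 0.1 FPKM differed between pairs of libraries by a most frequent ratio of 1.08 to 1.73. The 14 named leukocyte markers summed to 1074 to 1961 FPKM in lesions, against 162 to 369 FPKM in healthy tissue. Epithelial KRT4, singled out after its values were seen, went against a split by tissue, at 8.99, 2534 and 569 FPKM in the lesions of Bart, Jerome and Sadie, against 2089 FPKM in healthy mucosa of Bart and listed values of 0 in that of the other 2 cats. The 9 named muscle markers reached summed levels of 3797 to 4326 FPKM in 2 lesions (Jerome and Sadie) and of 1851 FPKM in healthy mucosa of Sadie, against at most 18.2 FPKM in the remaining 3 libraries.

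ACAT2, HMGCS1, MVK, FDFT1 and SREBF2 fell in FCGS lesions, and AACS was lower but passed only with the cat as a block. All 6 genes were lower in the lesion of every cat (34.6% of all identifiers tested and 92.5% of the 637 named ones with a lower mean). The geometric means of the 6 genes were 2.07-fold (SREBF2) to 5.15-fold (MVK) lower in lesions than in healthy mucosa. Both ends lie close to the limits of naming, a 2-fold difference and a fold of -5.20. The test was limma on log2 FPKM, with values below 1 raised to 1, tissue as the only term and no pairing by cat. It covered the 13327 identifiers that reached 1 FPKM in 3 or more libraries, and a gene was called at an adjusted p under 0.05. Of all identifiers tested, 11.9% were called, 6.61% lower and 5.31% higher, and of the 637 named identifiers with a lower mean 43.2% were. With the cat as a block, 6 of the 6 genes were called lower, against 66.7% of the same 637 named identifiers. In that fit 11.1% of all identifiers tested were called lower and 12.2% higher. With no filter on low values, which raised the number tested to 18541, 0 of the 6 genes passed (5 at an unadjusted p under 0.05). In such bulk tissue, fewer cells of a type and less RNA per cell cannot be told apart.

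AACS, the cytosolic synthetase that turns the ketone body acetoacetate into acetoacetyl-CoA, measured 10.2, 21.8 and 28.5 FPKM in the lesions of Bart, Jerome and Sadie, against 19.2, 37.8 and 83.8 FPKM in their healthy mucosa. The groups overlapped, since the lesions of Jerome and Sadie lay above healthy mucosa of Bart, but the cats kept the same order in both tissues. The log2 difference was -1.09 (95% interval -2.63 to 0.44, adjusted p = 0.292 from limma), and with the cat as a block the adjusted p was 0.0375. Within cats, AACS was 1.89-fold (Bart), 1.73-fold (Jerome) and 2.95-fold (Sadie) lower in the lesion.

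ACAT2, the cytosolic thiolase that joins acetyl-CoA units to acetoacetyl-CoA, measured 4.43, 7.91 and 5.30 FPKM in the lesions of Bart, Jerome and Sadie, against 15.7, 21.9 and 19.3 FPKM in their healthy mucosa. No lesion reached the lowest healthy value. ACAT2 fell by 1.72 in log2 units (SE 0.30, limma adjusted p = 0.0264). Its fall differed least between the cats among the 6 genes, with 3.55-fold (Bart), 2.77-fold (Jerome) and 3.65-fold (Sadie) lower values in lesions.

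HMGCS1, the cytosolic HMG-CoA synthase, measured 12.8, 14.8 and 8.52 FPKM in the lesions of Bart, Jerome and Sadie. In healthy mucosa it measured 109, 50.3 and 35.1 FPKM. Healthy mucosa of Bart stood highest, at 3.12 times that of Sadie, whereas the 3 lesions spanned 1.73-fold and did not overlap with it. HMGCS1 fell by 2.30 in log2 units (SE 0.46, limma adjusted p = 0.0339). The fall was 8.51-fold in Bart, 3.40-fold in Jerome and 4.12-fold in Sadie.

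MVK, mevalonate kinase, measured 3.71, 16.2 and 9.03 FPKM in the lesions of Bart, Jerome and Sadie, against 40.7, 40.7 and 44.7 FPKM in their healthy mucosa. Here the healthy libraries were nearly level, differing 1.10-fold, and the lesions spread 4.37-fold, the reverse of HMGCS1. MVK fell by 2.36 in log2 units (SE 0.53, limma adjusted p = 0.0410). The fall was 11-fold in Bart, 2.52-fold in Jerome and 4.94-fold in Sadie. The lesion of Bart held the lowest MVK value of any library.

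FDFT1, squalene synthase, measured 10.9, 8.94 and 5.26 FPKM in the lesions of Bart, Jerome and Sadie, against 29.9, 31.2 and 25.3 FPKM in their healthy mucosa. The groups lay apart, and the lesion of Bart, lowest for MVK, was highest for FDFT1. FDFT1 fell by 1.84 in log2 units (SE 0.32, limma adjusted p = 0.0264). The fall was 2.73-fold in Bart, 3.49-fold in Jerome and 4.80-fold in Sadie.

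SREBF2, the gene of the transcription factor SREBP2, measured 63.1, 76.7 and 63.5 FPKM in the lesions of Bart, Jerome and Sadie, against 122, 124 and 180 FPKM in their healthy mucosa. It was the most abundant of the 6 genes in every library, and its groups did not overlap. SREBF2 fell by 1.05 in log2 units (SE 0.22, limma adjusted p = 0.0359). The fall was 1.94-fold in Bart, 1.61-fold in Jerome and 2.84-fold in Sadie. SREBF2 passed in 0 of the 9 fits that left out a library or a cat. SREBP2 acts after its protein is cut from the membrane, which RNA does not measure.

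**Figure D1:**
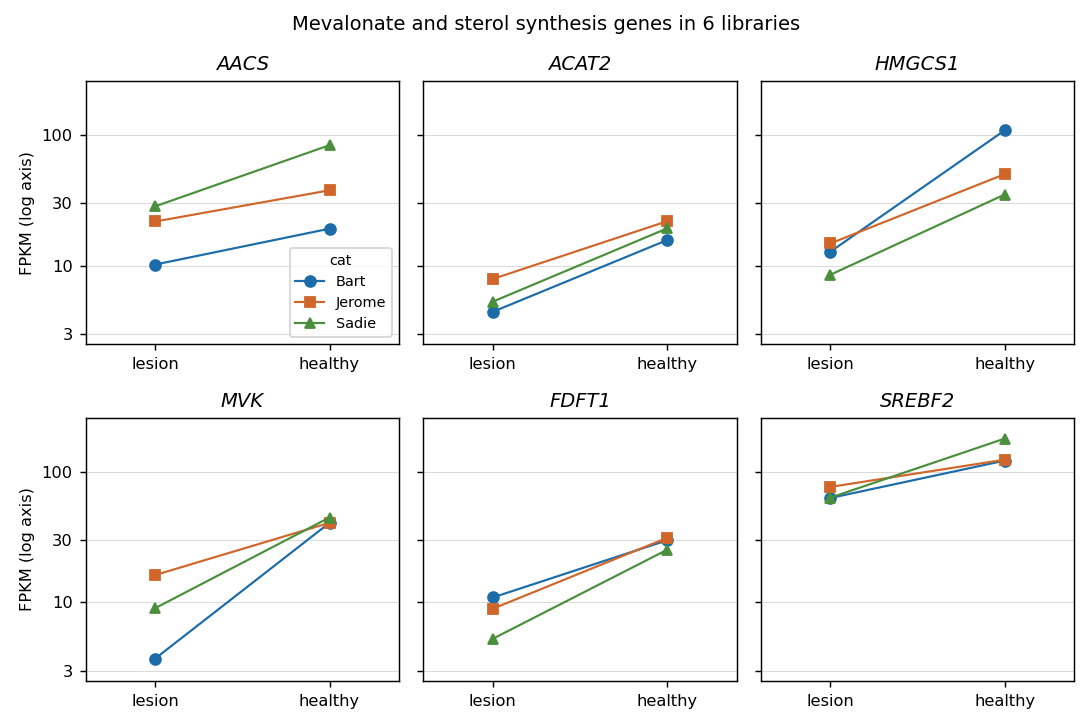
FPKM on a log axis (vertical) of AACS, ACAT2, HMGCS1, MVK, FDFT1 and SREBF2 in the lesion and the healthy mucosa (horizontal) of 3 cats, with 1 point per library and a line joining the libraries of a cat. Every line runs lower at the lesion, and AACS is the gene whose groups overlap, at 10.2 to 28.5 FPKM in lesions, against 19.2 to 83.8 FPKM in healthy tissue.

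The order of levels in lesions was SREBF2 (67.8 ± 7.74 FPKM), AACS (20.1 ± 9.26), HMGCS1 (12.0 ± 3.20), MVK (9.65 ± 6.27), FDFT1 (8.38 ± 2.88) and ACAT2 (5.88 ± 1.81; SD, n = 3 cats each). In healthy mucosa it was SREBF2 (142 ± 33.1 FPKM), HMGCS1 (64.9 ± 39.2), AACS (46.9 ± 33.3), MVK (42.0 ± 2.29), FDFT1 (28.8 ± 3.13) and ACAT2 (19 ± 3.11; SD, n = 3 cats each). In lesions only SREBF2 stood clear of its neighbour, and the ranges of each following pair overlapped. In healthy mucosa the ranges of HMGCS1, AACS and MVK overlapped, whereas MVK lay above FDFT1 and FDFT1 above ACAT2 in every library.

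Set against the other identifiers of the same library, the genes kept different standings. Among identifiers with at least 1 FPKM, SREBF2 stood at percentiles 87.4 to 89.3 in lesions and 92.8 to 94.6 in healthy mucosa. MVK stood at percentiles 20.1 to 59.0 in lesions, against 79.5 to 80.4 in healthy mucosa. ACAT2 stood at percentiles 24.1 to 40.3 in lesions and 57.2 to 65.5 in healthy mucosa.

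At least 2-fold lower values in the lesion of every cat were seen for ACAT2, HMGCS1, MVK and FDFT1, 4 of the 6 genes (6.81% of all identifiers tested and 40.8% of the named ones with a lower mean). AACS and SREBF2 stayed under 2-fold in Bart and Jerome. Groups without overlap were seen for 5 of the 6 genes (21.9% of all identifiers tested, with 16.7% apart in the other direction, and 78.0% of the named ones with a lower mean). When either Jerome or Sadie was left out, 0 of the 6 genes and 0 of the 13327 identifiers passed limma, with 5 of the 6 at an unadjusted p under 0.05 (18.3% of all identifiers without Jerome and 16.1% without Sadie). Leaving out the lesion of Sadie, healthy mucosa of Sadie or healthy mucosa of Jerome also left 0 of the 6 called (5 at an unadjusted p under 0.05), and leaving out the cat Bart left 4. Leaving out the lesion of Bart left 3, and leaving out healthy mucosa of Bart or the lesion of Jerome left 2.

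The other enzymes of the pathway that carried a name, PMVK, MVD, IDI1 and LSS, were lower in lesions too, and of these limma called LSS alone. A list of 20 enzymes held 9 with a name, of which 5 fell and 0 rose (43.2% of the named identifiers with a lower mean were called). These were LSS and, already described above, ACAT2, HMGCS1, MVK and FDFT1. The 9 enzymes also hold AACS, so the counts and the median given here largely repeat genes described first and add no separate evidence. With the cat as a block 9 of the 9 were called (66.7% of those named identifiers), and 8 of the 9 were at least 2-fold lower in the lesion of every cat (40.8%). Their median log2 difference was -1.84, against -1.46 over the 637 named identifiers with a lower mean and -0.07 over all identifiers tested. A name requires a 2-fold difference and the 328 strongest falls of the table were not used here, so the 11 enzymes without a name, among them FDPS, SQLE, CYP51A1 and DHCR7, may be nearly equal or more strongly lower.

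PMVK, the next kinase, had a mean of 72.4 ± 33.4 FPKM in lesions, against 248 ± 136 FPKM in healthy tissue (SD, n = 3 each; log2 difference -1.75, adjusted p = 0.0994 from limma, 0.0216 with the block). MVD, which makes isopentenyl diphosphate, had a mean of 27.4 ± 18.5 FPKM in lesions, against 132 ± 77.7 FPKM in healthy tissue (SD, n = 3 each; log2 difference -2.30, adjusted p = 0.102 from limma, 0.0217 with the block). IDI1, the isomerase of that product, had a log2 difference of -1.41 (adjusted p = 0.0587, 0.0276 with the block). These 3 enzymes were lower in the lesion of every cat, and MVD alone had overlapping groups.

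After squalene, LSS carried a name. LSS, which closes the sterol rings, measured 8.4, 19 and 13.9 FPKM in the lesions of Bart, Jerome and Sadie, against 34.4, 65.9 and 100 FPKM in their healthy mucosa. LSS fell by 2.22 in log2 units (SE 0.48, limma adjusted p = 0.0384). Of the 14 enzymes that lead from the pathway to dolichol, ubiquinone and prenylated proteins, 0 carried a name.

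**Figure D2:**
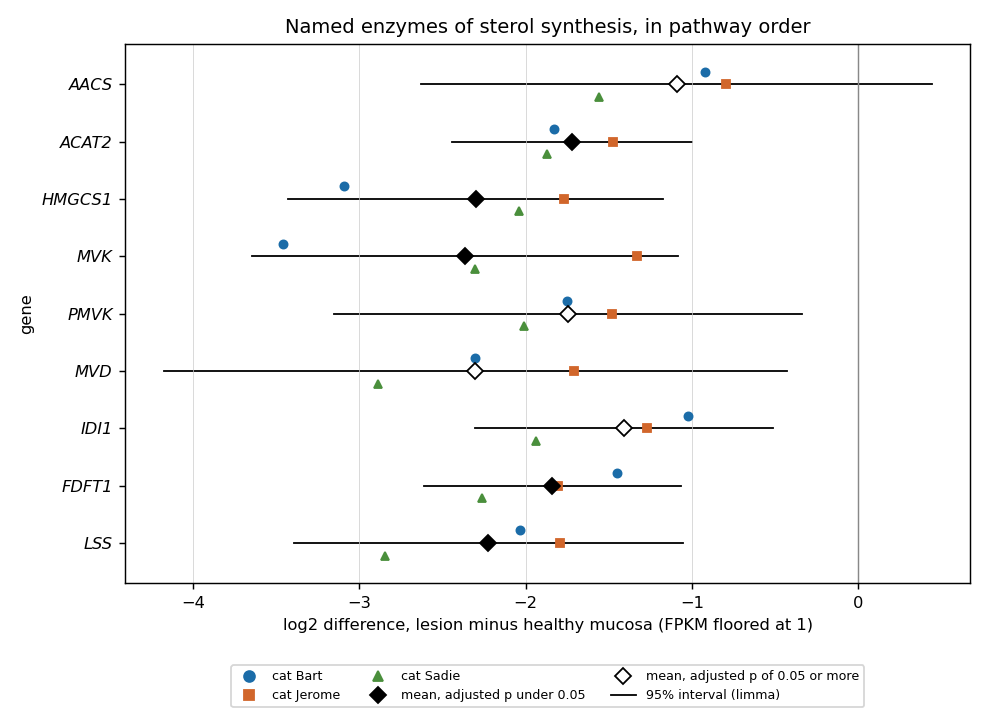
Log2 difference of lesion minus healthy mucosa (horizontal) for the 9 named enzymes in pathway order from top to bottom (vertical), with 1 coloured point per cat and the mean as a diamond with its 95% interval from limma. All 27 coloured points lie below 0, and the mean differences run from -1.09 (AACS) to -2.36 (MVK). The intervals come from the fit without a term for the cat.

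The cats differed from one another in which enzymes were high, and in healthy mucosa HMGCS1 went against several other enzymes. In healthy mucosa, HMGCS1 was highest in Bart, at 3.12 times the lowest cat. In contrast, AACS, PMVK, MVD, IDI1 and LSS were lowest in Bart and highest in Sadie, at 2.48 to 4.36 times the lowest cat. MVK, ACAT2 and FDFT1 were nearly level, at 1.10 to 1.39 times. Across the 9 enzymes, healthy mucosa was highest in Sadie for 6, and lesions were highest in Jerome for 6.

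The ratio of 2 genes within a library does not depend on how that library was scaled. The ratio of HMGCS1 to AACS was 1.26, 0.678 and 0.3 in the lesions of Bart, Jerome and Sadie, against 5.68, 1.33 and 0.419 in their healthy mucosa. The ratio of HMGCS1 to LSS was 1.53, 0.776 and 0.612 in lesions of the same cats, against 3.18, 0.763 and 0.35 in healthy mucosa. Both ratios were highest in Bart and lowest in Sadie in each tissue, but this order did not hold in full for FDFT1 or MVK as partners of HMGCS1. The ratio of HMGCS1 to FDFT1 was 1.17, 1.65 and 1.62 in lesions of the same cats, against 3.66, 1.61 and 1.39 in healthy mucosa, so that Bart was lowest in lesions and highest in healthy mucosa. The ratio of HMGCS1 to MVK was 3.46, 0.912 and 0.944 in lesions, against 2.69, 1.23 and 0.785 in healthy mucosa. It was highest in Bart in each tissue, but lowest in Jerome among lesions and in Sadie among healthy libraries. These ratios were chosen after the values were seen, and no test was made of the difference between 3 cats.

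The order of the 3 cats was the same in lesions and healthy mucosa for 3 of the 9 enzymes (28.8% of all identifiers tested). Among the 6 genes this held for AACS and ACAT2.

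**Figure D3:**
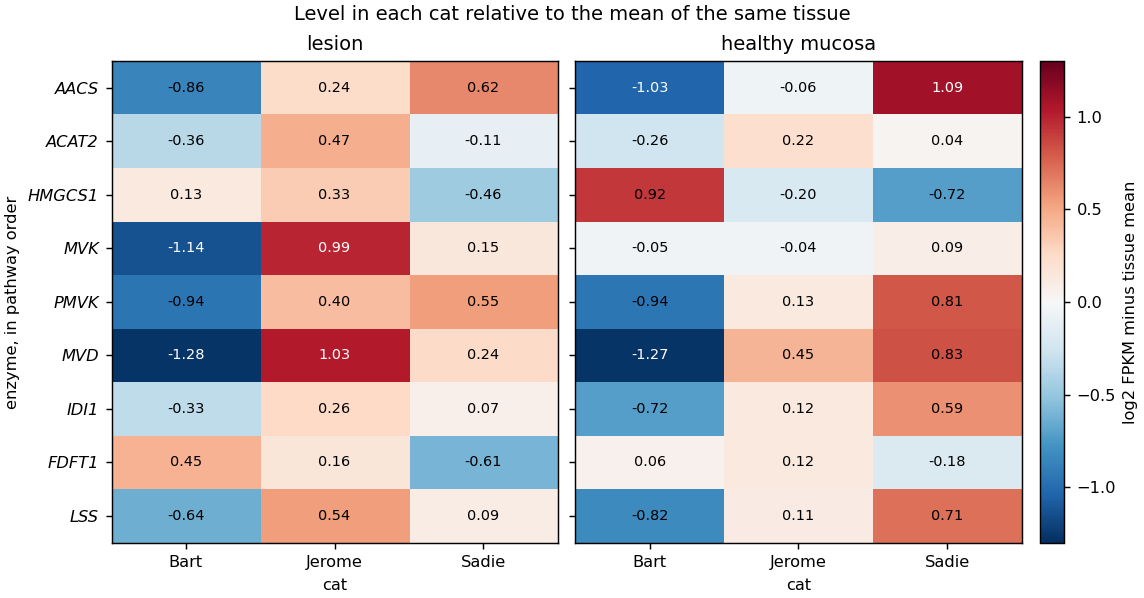
Log2 FPKM of the 9 named enzymes (vertical, in pathway order) in each cat (horizontal), minus the mean of the 3 cats in the same tissue, for lesions (left) and healthy mucosa (right). Red is above and blue below the tissue mean. HMGCS1 is red in Bart in both tissues (0.13 in the lesion, 0.92 in healthy mucosa), where MVD is blue (-1.28 and -1.27). In lesions, however, HMGCS1 and MVD are both highest in Jerome (0.331 and 1.035).

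Genes that act on the pathway from outside it moved in both directions. Of 9 genes of the SREBP machinery, SREBF1 and SREBF2 carried a name, and both fell (43.2% of the named identifiers with a lower mean were called). SREBF1, whose product SREBP1 drives fatty acid synthesis, measured 24.5, 41.8 and 33.5 FPKM in the lesions of Bart, Jerome and Sadie, against 65.2, 114 and 129 FPKM in their healthy mucosa. It fell by 1.60 in log2 units (SE 0.34, limma adjusted p = 0.0364). The ratio of SREBF2 to SREBF1 was 2.58, 1.83 and 1.89 in lesions, against 1.88, 1.08 and 1.4 in healthy mucosa of the same cats, higher in the lesion in each.

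Of 13 genes of sterol uptake and transport, NPC1 carried a name. NPC1, which carries cholesterol out of lysosomes, had a mean of 13.1 ± 2.72 FPKM in lesions, against 26.7 ± 0.505 FPKM in healthy tissue (SD, n = 3 each), and fell by 1.05 in log2 units (limma adjusted p = 0.0364).

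Of 15 genes of fatty acid synthesis, 3 carried a name, and 2 of them fell (43.2% of the named identifiers with a lower mean were called). FASN, fatty acid synthase, had a mean of 23.4 ± 8.61 FPKM in lesions, against 84.4 ± 17.2 FPKM in healthy tissue (SD, n = 3 each), and fell by 1.89 in log2 units (limma adjusted p = 0.0243). ELOVL1, which elongates long fatty acids, fell by 1.28 (adjusted p = 0.0374). ACACA, acetyl-CoA carboxylase, had a log2 difference of -2.32 (adjusted p = 0.0629, 0.0225 with the block). Of 8 genes that supply acetyl-CoA or handle ketone bodies, ACLY and BDH1 carried a name, and both fell, beside the same share of 43.2%. ACLY, which makes cytosolic acetyl-CoA from citrate, fell by 1.24 (adjusted p = 0.0416), and BDH1, a dehydrogenase of ketone bodies, fell by 1.94 (adjusted p = 0.0458).

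Of 11 genes of the liver X receptors (LXR, the sensors of oxysterols) and of efflux, 5 carried a name, 2 rose and 0 fell, and 4 rose and 1 fell with the cat as a block. Of the named identifiers with a higher mean, 31.5% were called, and 68.9% with the block. CSF1R, a receptor of macrophages, also rose (log2 difference 1.87, limma adjusted p = 0.0246), and its part in these values was not tested. ABCG1, a transporter that moves cholesterol out of cells such as macrophages, measured 17.8, 50.9 and 70.7 FPKM in the lesions of Bart, Jerome and Sadie, against 5.84, 11.2 and 3.86 FPKM in their healthy mucosa (log2 difference 2.66, adjusted p = 0.0472 from limma). APOE, the apolipoprotein that macrophages secrete, had a mean of 863 ± 208 FPKM in lesions, against 326 ± 82.9 FPKM in healthy tissue (SD, n = 3 each; log2 difference 1.41, adjusted p = 0.0326).

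NR1H3, the gene of LXR alpha, had a log2 difference of 1.89 (limma adjusted p = 0.0978, 0.0216 with the block). CH25H, which makes 25-hydroxycholesterol, had one of 1.08 (adjusted p = 0.0934, 0.0392 with the block). LPCAT3, an LXR target that remodels phospholipids, was the member of this list with a lower mean, at a log2 difference of -1.05 (adjusted p = 0.0978, 0.0242 with the block).

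**Figure D4:**
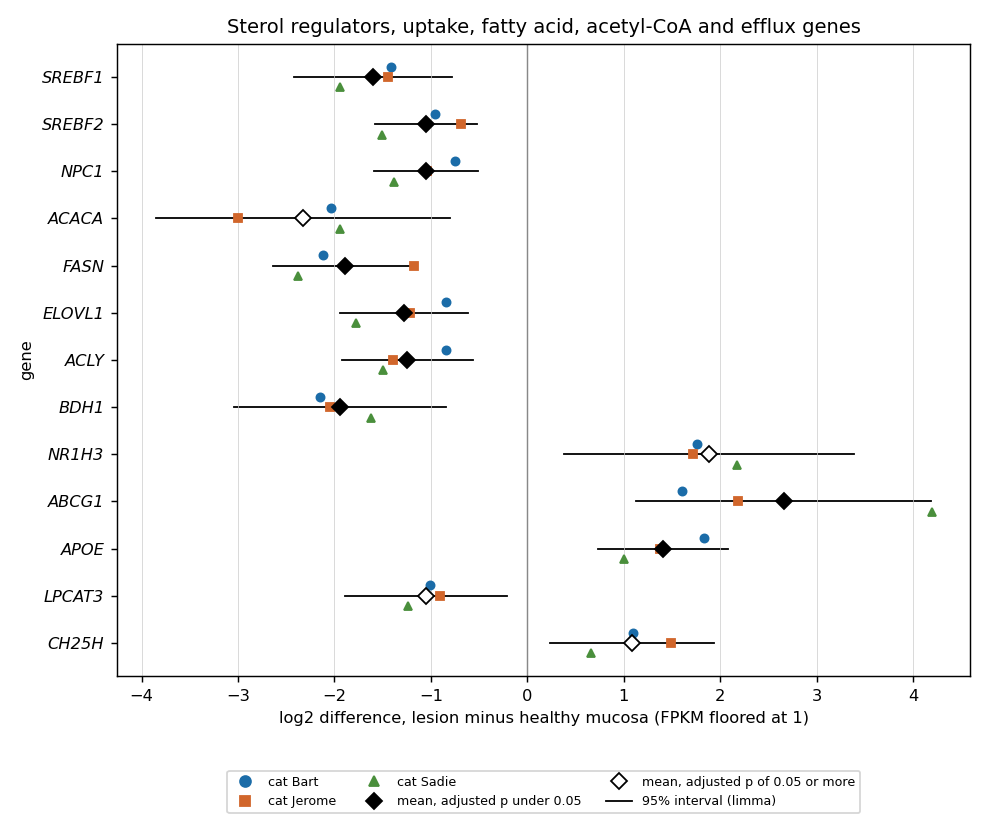
Log2 difference of lesion minus healthy mucosa (horizontal) for named genes of the SREBP machinery, uptake, fatty acid synthesis, acetyl-CoA and ketone body metabolism and sterol efflux, from top to bottom (vertical), with 1 coloured point per cat and the mean as a diamond with its 95% interval from limma. The genes from SREBF1 to BDH1 and LPCAT3 have means below 0, whereas NR1H3, ABCG1, APOE and CH25H lie above 0 in every cat. Filled diamonds mark an adjusted p under 0.05. The intervals and adjusted p come from limma without a term for the cat.

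Markers of other cell types were read beside these genes. Of 31 epithelial markers, 6 carried a name, 2 fell and 0 rose (43.2% of the named identifiers with a lower mean were called). COL17A1, a collagen of the epithelial attachment, had a log2 difference of -2.25 (limma adjusted p = 0.0382). Its mean was 69.5 ± 39.1 FPKM in lesions, against 322 ± 158 FPKM in healthy tissue (SD, n = 3 each). TGM5, a transglutaminase of the cornified envelope, had a log2 difference of -2.38 (limma adjusted p = 0.0264). TGM5 measured 0.0813 to 0.556 FPKM in lesions, all raised to 1 in the fit, against 2.86 to 7.5 FPKM in healthy mucosa. The size of its difference and its p thus depend on the floor. The other 4 did not pass. Of these, LAMA3 (-1.54 in log2 units, limma adjusted p = 0.0754) and KRT10 (-1.02, 0.194) were still lower in the lesion of every cat. Groups without overlap, lower in lesions, were seen for 4 of the 6 markers: COL17A1, TGM5, LAMA3 and KRT10. This was so for 21.9% of all identifiers tested and 78.0% of the named ones with a lower mean. For KRT10 the gap was small, from 2.23 FPKM in the lesion of Jerome to 2.31 FPKM in healthy mucosa of Sadie. KRT4 and LAMB3 did not keep 1 direction in the 3 cats. KRT4 stood at 4.20 in log2 units (adjusted p = 0.468). LAMB3 stood at -1.89 (adjusted p = 0.363), with 35.6 FPKM in the lesion of Jerome, against 23.7 FPKM in healthy mucosa of that cat. KRT4 and LAMB3 were singled out after their values were seen. Of 16 leukocyte markers, 14 carried a name and 5 rose (14 with the block), beside 31.5% of the named identifiers with a higher mean (68.9% with the block). Among the 5 were MS4A1 of B cells (log2 difference 3.06, limma adjusted p = 0.0210) and ITGB2, the integrin chain of leukocytes (2.35, adjusted p = 0.0246). Of 9 endothelial and fibroblast markers 6 carried a name and 3 rose (6 with the block), beside the same shares. Of 11 muscle markers 9 carried a name and 0 were called by limma (0 with the block, and 0 at an unadjusted p under 0.05), and of 7 adipocyte markers LPL alone carried a name (log2 difference 2.54, adjusted p = 0.0673).

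The 6 epithelial markers summed to 64.5, 2693 and 629 FPKM in the lesions of Bart, Jerome and Sadie, against 2663, 260 and 281 FPKM in their healthy mucosa. This sum was lower in the lesion of Bart and higher in the lesions of Jerome and Sadie. Without KRT4, left out after its values were seen, the other 5 summed to 55.5, 160 and 60.2 FPKM in lesions of the same cats, against 574, 260 and 281 FPKM in healthy mucosa, of which COL17A1 made up 504 FPKM in healthy mucosa of Bart. The 9 sterol enzymes summed to 152, 310 and 270 FPKM in lesions of the same cats, against 528, 853 and 1186 FPKM in healthy mucosa. The sum of the enzymes was lower in the lesion of every cat, and that of the epithelial markers only when KRT4 was left out. Healthy mucosa of Bart was the highest of the 3 for the sum of the epithelial markers, with and without KRT4, and the lowest for that of the 9 enzymes. In healthy mucosa of Sadie, PMVK, IDI1 and MVD made up 387, 293 and 197 FPKM of the sum of the enzymes. HMGCS1 went the other way, highest in healthy mucosa of Bart (109 FPKM). For the 6 genes described first, healthy mucosa of Jerome was lowest (306 FPKM) and that of Bart came next (337 FPKM). LYZ in healthy mucosa of Bart was the leukocyte marker listed at 0, and KRT4 in healthy mucosa of Jerome and Sadie was the epithelial marker listed at 0. The part of tissue composition in the falls of the sterol genes was not tested.

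**Figure D5:**
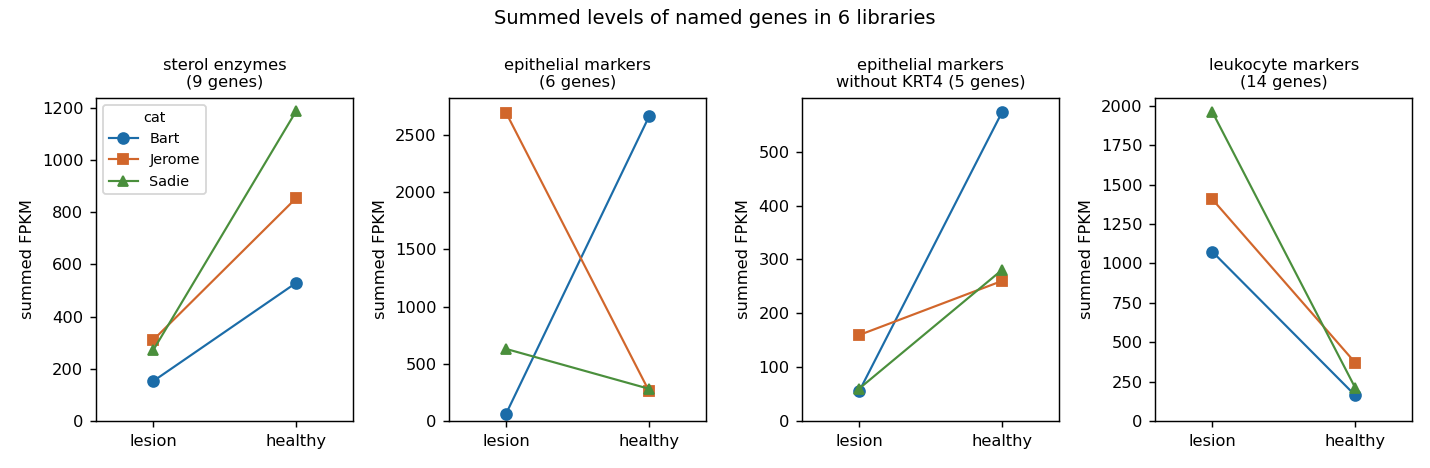
Summed FPKM (vertical) of the 9 named sterol enzymes, of 6 epithelial markers, of the same without KRT4 and of 14 leukocyte markers in the lesion and healthy mucosa (horizontal) of 3 cats, with a line joining the libraries of a cat. The enzymes are lower and the leukocyte markers higher in each lesion, whereas the 6 epithelial markers are higher in the lesions of Jerome (2693 FPKM, against 260 FPKM) and Sadie (629 FPKM, against 281 FPKM) and lower in each lesion without KRT4.

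Among 1923 other named genes, those whose log2 profile over the 6 libraries was most like the mean profile of the 6 genes were PLCB3, FAM212A, EZH2, ERBB2 and USP5, with Pearson r of 0.996 to 0.998. The 6 points are 3 lesions and 3 healthy libraries that lie apart, so r is given as a measure of likeness only. ERBB2, a receptor tyrosine kinase, measured 10.5, 22.6 and 14.7 FPKM in the lesions of Bart, Jerome and Sadie, against 58.8, 73.1 and 82.4 FPKM in their healthy mucosa. EZH2, a histone methyltransferase, measured 5.96, 8.76 and 6.43 FPKM in lesions, against 18.4, 17.8 and 18.9 FPKM in healthy mucosa. Between pairs of the 6 genes the same measure ran from 0.24 (AACS and HMGCS1) to 0.96 (ACAT2 and MVK).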

How the data were processed

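RNA was sequenced from 3 lesion and 3 healthy biopsies, grouped by the sample labels. The authors deposited FPKM values, made with HISAT, Cufflinks and Cuffnorm per the labels. Versions and genome build were not stated. Labels and methods differ on read length and layout, and the files hold no read numbers per library, so no count model was used and precision rests on the spread between 3 cats.

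Symbols came from 1981 rows of the study's supplementary table, whose values, floored at 1, each matched 1 of 21529 identifiers to 5 significant digits. This named 1929; a name needed 3 values above the floor. The reference gene table matched 0 identifiers.

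FPKM below 1 was raised to 1, log2 was taken, and identifiers reaching 1 FPKM in 3 or more libraries entered a two-sided test in limma (version 3.58.1 in R 4.3.3, trend, tissue as the only term, Benjamini-Hochberg over 13327). The labels give 1 pair of biopsies per cat. Deviations from tissue means correlated at 0.49 (Bart), 0.20 (Jerome) and 0.41 (Sadie) within cats, and at -0.44 to 0.27 between cats, where the lesion of Jerome correlated most with healthy mucosa of Sadie (0.27). The fit was tested on simulated data. Figures were drawn with matplotlib 3.10.9, and tables were made with numpy 2.4.6 and pandas 2.3.3 under Python 3.11.15.

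The text names the 6 genes, all named genes of 4 sterol lists, up to 4 genes with the smallest p of each further list and the 5 genes of most similar profile. Outside this rule, KRT4, LAMB3 and LYZ were named after their values were seen. Genes and lists were chosen with earlier results of these data known. The fold changes of the supplementary table were not used, except to state the limit of -5.20. A planned search for motifs in promoters was not run. Some genes of these lists are not reported here and are in none of their counts or sums.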

Additional observations from a re-analysis of the deposited data

How the results depend on the processing

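The log2 difference of each of the 6 genes stayed negative under all 18 alternatives. Adding 0.1 or 1 FPKM in place of the floor, a minimum mean of 5 FPKM, quantile normalization, median centring, rescaling to a common sum and limma without the trend changed no call of the 6 genes. With no filter on low values, 18541 identifiers were tested, 526 were called (321 lower and 205 higher), and 0 of the 6 genes and 0 of the 9 enzymes were called (5 and 8 at an unadjusted p under 0.05). The log2 differences were -1.72 (ACAT2, adjusted p = 0.055), -2.30 (HMGCS1, 0.082), -2.36 (MVK, 0.099), -1.84 (FDFT1, 0.058) and -1.05 (SREBF2, 0.064). With the cat as a block, limma called 3098 identifiers (1476 lower, 1622 higher) and all 9 enzymes, among them AACS (-1.09, adjusted p = 0.037).

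Leaving out 1 library or 1 cat in turn (9 fits) gave 0 to 2136 calls over all identifiers, 0 to 1100 lower and 0 to 1036 higher, 0 to 4 of the 6 genes and 0 to 8 of the 9 enzymes. The log2 difference ranged from -1.61 to -0.55 (AACS), -1.96 to -1.54 (ACAT2), -2.66 to -1.84 (HMGCS1), -2.88 to -1.80 (MVK), -2.06 to -1.53 (FDFT1) and -1.23 to -0.82 (SREBF2). SREBF2 was called in 0 of these fits and ACAT2 in 4, and the highest adjusted p over the 6 genes was 0.59.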
